A study of Mus musculus with 4 samples.

Results

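The stefin A genes of the mouse, a cluster of related cysteine protease inhibitor genes on chromosome 16, were described across 4 single-cell RNA libraries. The list held 7 names, Stfa1, Stfa2, Stfa2l1, Stfa3, BC100530, Gm5483 and Cstdc4, which are 6 genes by Ensembl identifier. Gm5483 in the bone marrow annotation is Cstdc4 in the tumor annotation (ENSMUSG00000079597), and BC100530 in bone marrow is Cstdc5 in the tumor (ENSMUSG00000071561). All 6 genes were present among 31053 features in bone marrow and 32285 features in the tumor. They are called by their bone marrow names here, singly and summed as the family. The family was chosen because its difference between genotypes in neutrophils was already known from these same libraries, so every KO over WT value below is a description and none carries a test.

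The KO mice were S100a8fl/fl with 1 Vav-Cre allele (Vav-Cre+/-), in which the Vav promoter drives Cre in blood-forming cells, and the WT mice were S100a8fl/fl without Cre (Vav-Cre-/-). Floxed S100a8 alleles were thus carried by both genotypes. Leukocytes were obtained by sorting CD45+ cells, either from the marrow of tumor-free mice or from LLC (Lewis lung carcinoma) tumors. KO and WT each gave 1 marrow and 1 tumor library. All 4 libraries pooled 3 mice, and no age, sex or further treatment was given. With 1 library per group, genotype, mouse pool and library preparation cannot be told apart, and intervals cover counting error only.

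Stefins are small inhibitors that sit inside the cell and block cysteine cathepsins such as cathepsins B, H, L and S by occupying their active site. Humans carry a lone stefin A gene, CSTA, whereas the mouse holds a row of tandem copies. In mice several of these copies are known as genes of maturing neutrophils, and CSTA is also known from keratinocytes. S100a8 encodes a calcium-binding protein that pairs with S100a9 to form calprotectin, a main protein of the neutrophil cytosol.

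The outermost of the 6 genes spanned 298.582 kb at chr16:36156811-36455392 (GRCm38). In genome order they were Stfa2l1, Gm5483 and Stfa1 on the plus strand, then BC100530, Stfa2 and Stfa3 on the minus strand, with the other stefin genes Csta3, Csta2 and Cstdc6 between them and Csta1 outside. The 90 bases before each RefSeq start (GRCm38.p6) are shown because the 6 genes share a stretch of similar sequence there. Capitals mark TTTAAAAC, a motif picked after the sequences had been read.
Stfa2l1 (chr16:36156721-36156810, plus strand): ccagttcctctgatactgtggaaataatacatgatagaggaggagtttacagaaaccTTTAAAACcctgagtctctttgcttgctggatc
Gm5483 (chr16:36184122-36184211, plus strand): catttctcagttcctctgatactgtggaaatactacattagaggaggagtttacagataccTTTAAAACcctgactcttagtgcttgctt
Stfa1 (chr16:36277058-36277147, plus strand): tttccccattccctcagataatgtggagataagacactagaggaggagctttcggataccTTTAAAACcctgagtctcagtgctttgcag
BC100530 (chr16:36367571-36367660, minus strand): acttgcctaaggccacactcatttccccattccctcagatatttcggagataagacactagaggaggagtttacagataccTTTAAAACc
Stfa2 (chr16:36408364-36408453, minus strand): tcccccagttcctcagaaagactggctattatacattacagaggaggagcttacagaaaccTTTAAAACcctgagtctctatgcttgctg
Stfa3 (chr16:36455393-36455482, minus strand): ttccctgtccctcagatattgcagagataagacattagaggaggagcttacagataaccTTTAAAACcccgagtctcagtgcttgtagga

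On the sense strand within the last 60 bases, TTTAAAAC stood in 6 of 6 of these promoters and in 42 of 32851 RefSeq promoters (0.128%). In the longer window of 250 bases, searched on both strands, it stood in 6 of 6 and in 523 of 32851 (1.59%). It began at position -33 in Stfa2l1, -29 in Gm5483, -30 in Stfa1, -9 in BC100530, -29 in Stfa2 and -31 in Stfa3, so the annotated start of BC100530 lies closer to the shared stretch than the other starts do. GGAGGAG, which precedes TTTAAAAC without overlap in each stretch shown, stood in 6 of 6 and in 15.1% of all promoters over the longer window, on either strand. GATAAG stood in BC100530, Stfa1 and Stfa3 and in 6.55% of all promoters. The promoter pairs were 72.8% to 96.1% identical, highest between BC100530 and Stfa1 and lowest between Gm5483 and Stfa2. A match in these windows describes letters only.

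The transcripts were as alike as the promoters. Over the 15 pairs, identity ranged from 75.4% to 97.1% with a median of 81.2%, highest for BC100530 with Stfa1 (97.1%) and for Stfa2 with Stfa2l1 (95.7%). Of all stretches of 91 bases in the last 400 bases of each transcript, 72.3% were found in no other stefin A gene of the locus for BC100530, 84.5% for Gm5483, 87.7% for Stfa1, 97.7% for Stfa2 and Stfa2l1, and 100% for Stfa3. The end of the transcript that was read, and how the authors' counting treated a read that fits several copies, are not given in the sources used here. Levels of single copies are therefore uncertain, most of all for BC100530 and then for Gm5483 and Stfa1. Some copies are also close to stefin genes outside the family. BC100530 is 95.3% and Stfa1 94.1% identical to Cstdc6, and Gm5483 is 94.9% identical to Csta2. The family sum is thus touched as well.

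**Figure D1:**
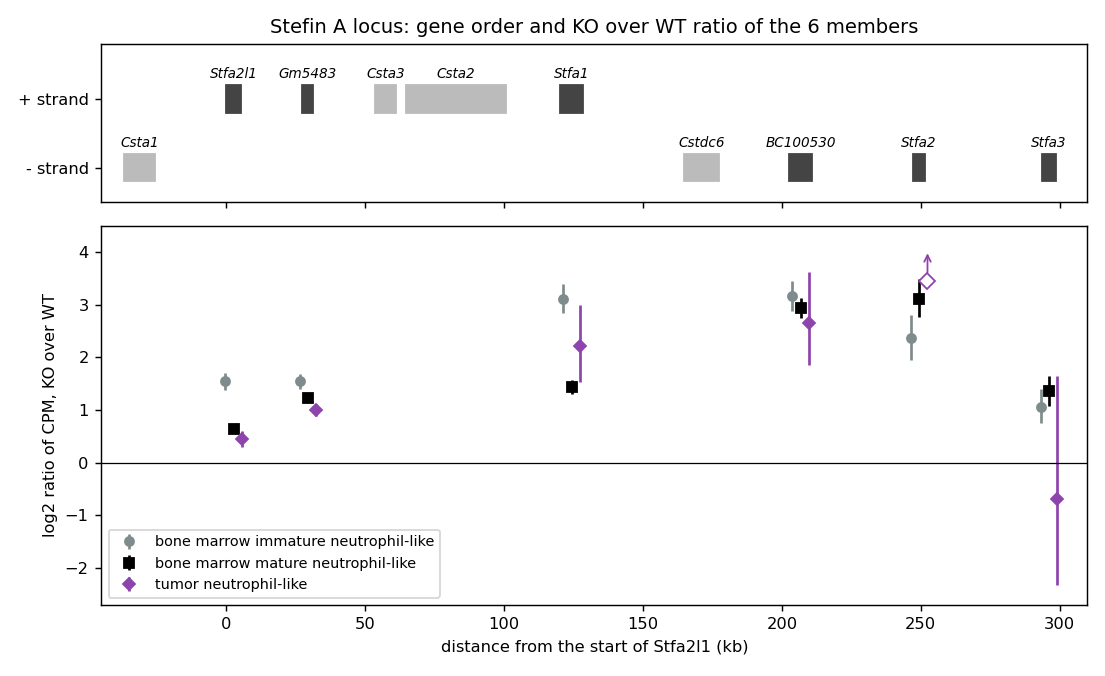
Upper panel: the stefin A genes by strand, with the distance in kb from the start of Stfa2l1 on the horizontal axis and the 6 family genes in dark grey. Lower panel: the log2 ratio of CPM, KO over WT, of each gene in 3 neutrophil-like classes, with 95% counting intervals, slightly offset, and an open symbol with an arrow for Stfa2 in the tumor, a lower bound. BC100530 and Stfa2, neighbors on the minus strand, lie above Stfa2l1 and Gm5483 in each class.

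After filtering, 9892 cells remained in KO bone marrow and 7446 in WT bone marrow, with medians of 2746 and 2238.5 UMIs per cell. The tumor libraries held 10332 KO and 10503 WT cells, with medians of 7867.5 and 6384 UMIs. Library pairs shared 21 to 46 cell barcodes. S100a8 had 6 UMIs in KO against 2013505 in WT bone marrow, and 82 in KO against 11457 in WT tumor, as the labels say. Clusters named from marker lists gave 3210 KO and 1999 WT immature neutrophil-like cells and 3485 KO and 1510 WT mature ones in bone marrow. The tumors gave 3091 KO and 219 WT neutrophil-like cells, 29.9% of KO and 2.09% of WT cells, so the WT tumor values rest on few cells.

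Stefin A RNA sat in neutrophils in all 4 libraries. Neutrophil-like cells held 95.01% of the family's UMIs in KO bone marrow, 94.9% in WT bone marrow, 96.8% in KO tumor and 93.3% in WT tumor. Levels are given as CPM, the UMIs of a gene per 1000000 UMIs of the class. Among the 14 bone marrow classes of at least 50 cells the mature class was highest, with 7053 CPM for KO and 3008 CPM for WT. Macrophage-like cells came next with 1911 CPM in KO (160 cells) and 513 CPM in WT (90 cells), then immature neutrophil-like cells with 609 CPM (KO) and 153 CPM (WT). In the tumor, neutrophil-like cells had 3209 CPM in KO and 1690 CPM in WT. Among tumor classes of at least 50 cells, the next in KO was conventional dendritic-like cells (31.2 CPM), and the next in WT was macrophage-like cells (3.38 CPM). Smaller tumor classes reached higher levels, with 702 CPM in 22 KO and 50.2 CPM in 37 WT basophil or mast-like cells and 204 CPM in 26 KO plasmacytoid dendritic-like cells. The leading places among the larger classes differed from their next neighbor beyond counting error in all 4 libraries. Below the basophil or mast-like class, which held 188 CPM in KO and 60.7 CPM in WT, most neighbors in the bone marrow order did not differ beyond counting error.

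Some of the lower values were no higher than in cells that should lack stefin A. Free RNA was not measured directly. B-like cells, which should not make stefin A, held 72.0 CPM in KO (55 UMIs) and 14.6 CPM in WT (18 UMIs). With every cell thinned to 1000 UMIs, 3.97% of KO and 1.26% of WT bone marrow B-like cells had a family UMI, at median depths before thinning of 1731 and 1506 UMIs. Tumor T-like cells gave 1.15% in KO and 0.0283% in WT. Unthinned, those shares were 6.57% in KO and 1.98% in WT for B-like cells, and 5.74% in KO and 0.0835% in WT for tumor T-like cells. Bone marrow macrophage-like cells lay far above this, with 40.9% of KO and 15% of WT cells positive after thinning. They also held 13075 CPM in KO and 10385 CPM in WT of an 8-gene neutrophil marker list (Csf3r, Retnlg, Mmp9, Cxcr2, Ly6g, G0s2, Mmp8, Il1r2). Per 100 UMIs of that list they had 14.6 family UMIs in KO and 4.94 in WT, near the 18.4 in KO and 6.50 in WT of mature neutrophil-like cells.

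**Figure D2:**
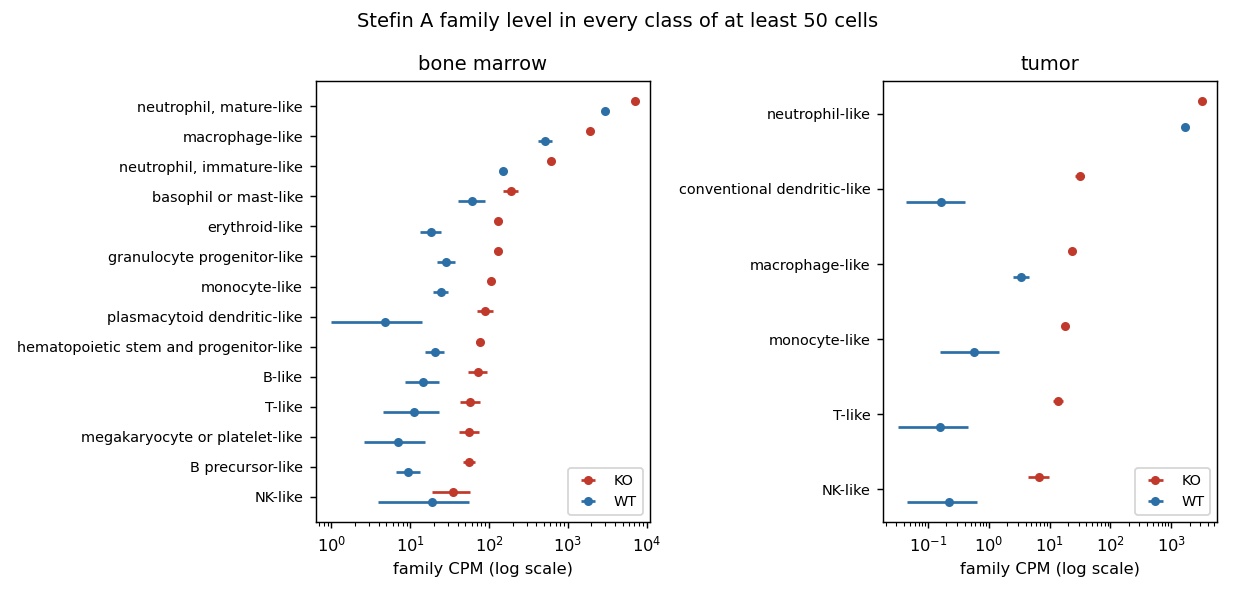
Summed stefin A CPM on a log axis for each class of at least 50 cells with a family UMI, KO above WT, with 95% Poisson intervals for counting error. Neutrophil-like classes lie at the right in both tissues, and KO lies right of WT in the classes measured in both libraries, with overlapping intervals for bone marrow NK-like cells.

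In bone marrow mature neutrophil-like cells the family had 7053 CPM in KO (47640 UMIs) and 3008 CPM in WT (6933 UMIs), a ratio of 2.34 with a 95% counting interval of 2.29 to 2.405. All 6 genes were higher in KO, and 5 of 6 were over 2-fold higher, where 3.8% of 6630 measured genes were. None was over 2-fold lower, where 1.34% of measured genes were. Measured here means at least 50 UMIs over both libraries. Since the genes were chosen from this contrast, nothing is read from that count.

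Gm5483 was the most abundant copy in mature cells, with 3638 CPM in KO against 1543 CPM in WT (ratio 2.36, 2.28 to 2.44). Stfa2l1 followed with 1653 CPM in KO and 1058 CPM in WT, and had the lowest ratio of the 6, 1.56 (1.496 to 1.63). BC100530 held 756 CPM in KO and 98.9 CPM in WT, a ratio of 7.65 (6.70 to 8.77). It was thus above Stfa1 in KO and below it in WT, as Stfa1 held 616 CPM in KO and 227 CPM in WT (ratio 2.71, 2.47 to 2.97). Stfa2 held 259 CPM in KO and 29.9 CPM in WT, the largest ratio of the family at 8.66 (6.81 to 11.2). By size of ratio Stfa2 and BC100530 were in places 4 and 5 of the 6630 measured genes, whereas Stfa2l1 was in place 829. Stfa3 was the scarcest, with 129.8 CPM in KO and 50.8 CPM in WT (ratio 2.56, 2.11 to 3.13).

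The members of the closest pairs differed in their ratios. Stfa2 had 15.7 UMIs per 100 UMIs of Stfa2l1 in KO and 2.83 in WT, and BC100530 had 123 per 100 UMIs of Stfa1 in KO and 43.5 in WT. Markers of other cell types in the mature class were counted as well. The 8-gene neutrophil list summed to 38350 CPM in KO and 46279 CPM in WT, so it was lower in KO while the stefins were higher. Of 7 B cell markers all had a UMI in both libraries and summed to 36.4 CPM in KO and 89.4 CPM in WT, and 6 of 6 erythroid markers to 198 CPM in KO and 446 CPM in WT. The 6 monocyte markers, all found in both, summed to 969 CPM in KO and 732 CPM in WT. The part of these cells in the ratio was not tested. Of 5 keratinocyte markers (Krt5, Krt14, Krt10, Krt1, Lor), 1 had a UMI in KO and none in WT. S100a8 alone stood at 129184 CPM in WT mature cells. When S100a8 and S100a9, along with hemoglobin, ribosomal protein and mitochondrial genes, were dropped from the total, the family ratio was 2.04.

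**Figure D3:**
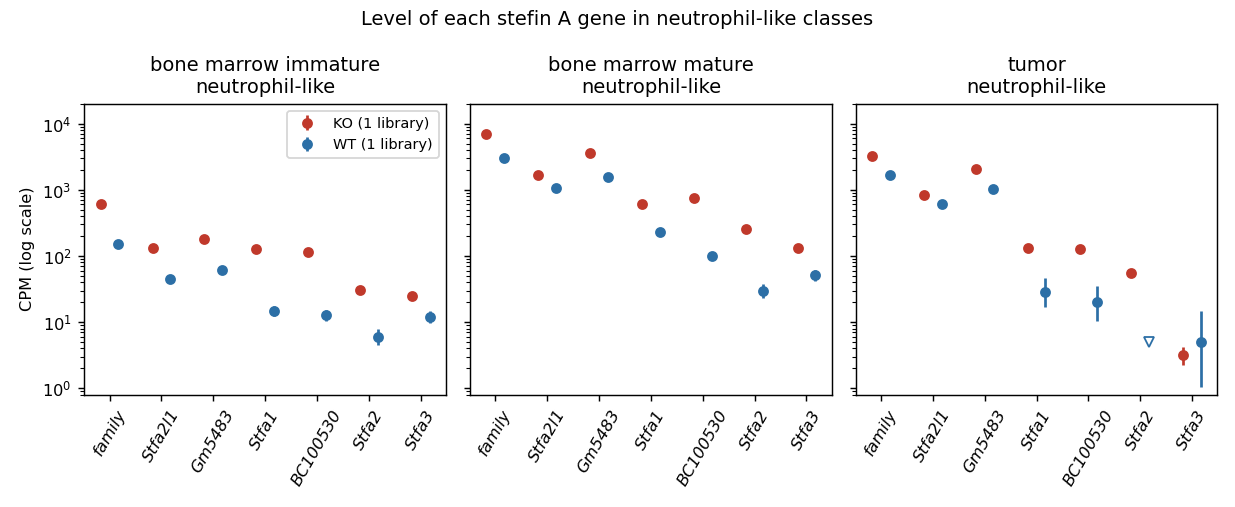
CPM on a log axis of the family sum and of each gene in 3 neutrophil-like classes, KO left of WT, 1 library per point with 95% Poisson intervals. An open triangle marks the level of 3 UMIs where no UMI was found (Stfa2 in WT tumor). KO lies above WT for each gene except Stfa3 in the tumor.

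Immature neutrophil-like cells held less stefin A than mature ones, and the KO over WT ratio was larger, though its size depended on how the class was drawn. The family had 609 CPM in KO (9216 UMIs) and 153 CPM in WT (1288 UMIs), a ratio of 4.00 (3.77 to 4.24). B-like, B precursor-like and T-like cells of the same libraries, at far lower levels, had ratios no smaller than this. The family ratio was 4.92 (2.85 to 8.91) in B-like, 5.94 (4.04 to 8.95) in B precursor-like and 5.16 (2.32 to 13.5) in T-like cells. NK-like cells were closer between genotypes, with 34.7 CPM in KO (14 UMIs), 18.9 CPM in WT (3 UMIs) and overlapping intervals. The part of free RNA in the immature ratio was not tested. All 6 genes were over 2-fold higher in KO, where 1.5% of 8868 measured genes were (0.586% were over 2-fold lower), again a count from the contrast that chose them. BC100530 (113 CPM in KO, 12.7 CPM in WT, ratio 8.96, 7.37 to 10.99) and Stfa1 (128 CPM in KO, 14.8 CPM in WT, ratio 8.65, 7.22 to 10.5) had the largest ratios. Stfa1 thus stood with BC100530 here, while in mature cells its ratio was near that of Gm5483. Stfa2 held 31.1 CPM in KO and 6.04 CPM in WT (ratio 5.15, 3.85 to 7.01). Gm5483 held 179 CPM in KO and 61.3 CPM in WT, and Stfa2l1 held 133 CPM in KO and 45.6 CPM in WT, with ratios of 2.92 and 2.91. Stfa3 had the lowest ratio, 2.09 (1.68 to 2.63), with 25.3 CPM in KO and 12.1 CPM in WT. Over the alternatives tried the ratio ran from 7.25 to 53.9 for BC100530, 5.82 to 18.4 for Stfa1 and 3.18 to 7.17 for Stfa2. It ran from 2.14 to 10.7 for Gm5483, 2.16 to 6.28 for Stfa2l1 and 1.68 to 4.06 for Stfa3. Each range reached above the counting interval of its gene, by little for Stfa2 (7.17 against 7.01). All but that of Stfa3 also reached below it.

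Among the 4 immature clusters, cluster 12, led by Mmp8, Gpr27, Nt5e, Chil5 and Acvrl1, carried most of this RNA, with 1923 CPM in KO and 925 CPM in WT (ratio 2.08, 1.95 to 2.22). Without cluster 12 the ratio of the class was 9.39. In cluster 5, led by Chil3, Ncam1, Fcnb, Camp and Orm1, the family held 228 CPM in KO and 14.9 CPM in WT, and in cluster 10, led by Orm1, Zmpste24, Tnfsf13b, Cldn1 and St3gal5, 154 CPM in KO and 20.1 CPM in WT. The WT values of both lie within the interval of WT B-like cells (8.67 to 23.1 CPM), while the KO values lay above the 54.2 to 93.7 CPM of KO B-like cells. Other KO classes stood above B-like cells too, with 119 to 144 CPM in erythroid-like and 151 to 232 CPM in basophil or mast-like cells. The KO interval of cluster 10 (141 to 169 CPM) overlaps both, and that of cluster 5 (216 to 241 CPM) overlaps the latter. Cluster 4, led by AA467197, Acvrl1, Trp53inp2, Chil5 and Ly6g, held 518 CPM in KO and 88.6 CPM in WT.

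In tumor neutrophil-like cells the family had 3209 CPM in KO (42509 UMIs) and 1690 CPM in WT (995 UMIs), a ratio of 1.90 (1.78 to 2.02). Of the 5 genes measured there, all were higher in KO and 4 were over 2-fold higher. Of 6383 measured genes, 6.03% were over 2-fold higher and 21.5% over 2-fold lower. The family was chosen from this contrast, so nothing is read from that count. Stfa1, BC100530 and Stfa2 passed the UMI minimum on KO UMIs, as their WT UMIs were few or none, while Stfa3 fell below it. The 4 include Stfa2 as a lower bound and Gm5483, whose interval was 1.85 to 2.18. Gm5483 held 2041 CPM in KO and 1017 CPM in WT, and Stfa2l1 846 CPM in KO and 618 CPM in WT, with ratios of 2.01 and 1.37. Stfa1 held 134 CPM in KO (1778 UMIs) and 28.9 CPM in WT (17 UMIs), a ratio of 4.65, or 2.65 without tumor cluster 15. BC100530, listed as Cstdc5, held 128.9 CPM in KO (1708 UMIs) and 20.4 CPM in WT (12 UMIs), a ratio of 6.33. Stfa2 had 736 UMIs in KO and none in WT, which makes KO at least 10.9-fold higher against a floor of 3 UMIs over the WT class. With thinned cells, or without tumor cluster 15, fewer UMIs remained and that bound was 3.73. Stfa3 was nearly absent, with 42 UMIs in KO and 3 in WT (3.17 and 5.09 CPM, ratio 0.622, interval 0.199 to 3.14), too few to order the genotypes.

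Markers of several other cell types were higher in the WT tumor neutrophil-like class, and those of some others were higher in KO. The 6 T cell markers summed to 17.5 CPM in KO and 268 CPM in WT, with 6 of 6 found in both. The 7 NK markers summed to 9.66 CPM in KO, with Ncr1 at 0, and to 47.6 CPM in WT, with Klrb1c, Klre1, Ncr1 and Eomes at 0. The 7 B cell markers summed to 257 CPM in KO, with 4 found, and to 829 CPM in WT, with 1 found. The 6 monocyte markers summed to 171 CPM in KO and 654 CPM in WT, and the 7 macrophage markers to 266 CPM in KO and 431 CPM in WT, all of them with a UMI in both. The 5 megakaryocyte or platelet markers summed to 102 CPM in KO, with 4 found, and 54.3 CPM in WT, with 3 found. The 5 plasma cell markers summed to 246 CPM in KO, with 4 found, and 185 CPM in WT, with 2 found, and the 5 eosinophil markers to 14.6 CPM in KO, with 4 found, and 3.40 CPM in WT, with 2 found. The neutrophil list itself was alike, with 11233 CPM in KO and 11572 CPM in WT. The part of these markers in the tumor ratio was not tested. Whole tumor libraries gave 483 CPM in KO and 12.7 CPM in WT, a value into which the number of neutrophil-like cells and the RNA per cell both enter.

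The make-up of the family differed between genotypes. In mature cells Gm5483 gave 51.6% of the family's UMIs in KO and 51.3% in WT. Stfa2l1 gave 23.4% in KO and 35.2% in WT, and BC100530 gave 10.7% in KO and 3.29% in WT. Stfa2 gave 3.68% in KO and 0.995% in WT. In immature cells Gm5483 was again the main copy, with 29.3% in KO and 40.2% in WT. Stfa1 gave 21.0% in KO and 9.70% in WT there, and BC100530 18.6% in KO and 8.31% in WT. The tumor showed the same main copy, with Gm5483 at 63.6% in KO and 60.2% in WT and Stfa2l1 at 26.4% in KO and 36.6% in WT.

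Cell by cell, the share of mature cells with stefin A UMIs differed more between genotypes than the number of UMIs per positive cell. After thinning to 1000 UMIs, which kept 3200 of 3485 KO and 1191 of 1510 WT mature cells, 74.0% of KO and 39.0% of WT mature cells had a family UMI. Before thinning these shares were 77.6% in KO and 41.1% in WT, at median depths of 1753 and 1378.5 UMIs. Positive cells then held a mean of 9.44 family UMIs in KO and 8.35 in WT. For Gm5483 the share was 48.4% in KO and 20.7% in WT, with 7.49 UMIs per positive cell in KO and 8.20 in WT. For Stfa2 it was 7.91% in KO and 1.09% in WT, with 3.13 UMIs in KO and 3.54 in WT. BC100530 departed most, with 11.3% of KO and 2.18% of WT cells positive and 6.21 UMIs per positive cell in KO against 4.46 in WT. Over the 6 genes the ratio of shares ran from 1.79 to 7.24 and the ratio of UMIs per positive cell from 0.839 to 1.39. At 1000 UMIs per cell a low level can go unseen, so the share with a UMI is not the share of cells making the RNA.

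For the family sum the share also differed more than the number per positive cell in the other classes. In tumor neutrophil-like cells 60.6% of KO and 36.5% of WT cells had a family UMI after thinning (76.3% and 43.8% before), with 5.19 UMIs per positive cell in KO and 4.49 in WT. In immature cells 21.4% of KO and 6.68% of WT cells were positive (36.9% and 12.3% before), with 3.94 UMIs in KO and 3.53 in WT. Stfa1 departed from this in immature cells, with 4.04 UMIs per positive cell in KO and 2.61 in WT, the WT value from 18 cells. The family's RNA was uneven among cells. The top 10% of mature cells held 47.6% of thinned family UMIs in KO and 61.7% in WT. Labels do not tie cells to the 3 mice of a pool, so how positive cells were spread over mice is unknown.

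**Figure D4:**
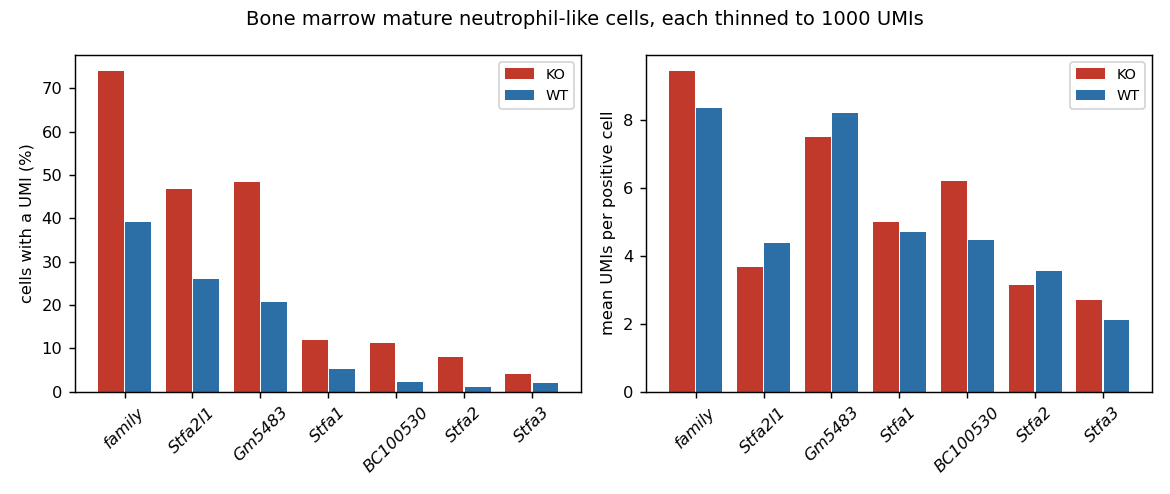
Left: percent of bone marrow mature neutrophil-like cells with a UMI of the family or of each gene. Right: mean UMIs per positive cell. Bars show KO left of WT, 1 library each, after thinning every cell to 1000 UMIs. The left bars differ between genotypes (family 74.0% in KO, 39.0% in WT) more than the right bars (9.44 in KO, 8.35 in WT).

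The copies were found in the same cells more often than in the remaining cells, though not always. Among thinned KO mature cells with Stfa2, 71.0% also had Gm5483, against 46.5% of KO cells without Stfa2, and 33.6% also had BC100530, against 9.35%. Among KO cells with Stfa1, 23.2% also had BC100530, against 9.67% of the others, so most cells with a UMI of 1 of these near-identical copies had none of the other. In WT mature cells with Stfa2l1, 43.3% also had Gm5483, against 12.3% of the others. In tumor KO cells with Stfa2, 77.6% also had Gm5483, against 43.3% of the others. Cells with more RNA of any kind are brought to 1 depth here, but maturation still varies among them.

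Within each neutrophil cluster the family was higher in KO. In the 4 mature clusters the family held 5278 CPM in KO and 2533 CPM in WT (cluster 1, led by Il1b, Steap4, Ptgs2, Pla2g7 and Socs3). In cluster 2, led by Gm5483, Stfa2l1, Cxcl2, Clec4d and Mpzl3, it held 8994 CPM in KO and 3848 CPM in WT. In cluster 3, led by the interferon-response genes Ifit3b, Ifit3 and Ifit1 with Gm13822 and Rsad2, it held 7013 CPM in KO and 3105 CPM in WT. In cluster 13, led by Prok2, Gm5483, Retnlg, BC100530 and Stfa1, it held 7141 CPM in KO and 2466 CPM in WT. The stefins were kept out of the genes used for clustering, yet they led 2 of these clusters. The mature class had 36.6% of its KO cells and 20.7% of its WT cells in cluster 1, and weighting KO clusters to the WT mix gave a ratio of 2.45.

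Both tumor clusters also stood higher in KO. Cluster 13, led by Ciart, Il1f9, Ccdc126, Gm20406 and F3, held 2946 CPM in KO and 1566 CPM in WT, and cluster 15, led by S100a8, Cxcr2, G0s2, Retnlg and Mrgpra2b, 3718 CPM in KO and 1759 CPM in WT. Single genes in single clusters varied more. In tumor cluster 13 BC100530 and Stfa2 had 941 and 461 UMIs in KO and none in WT. Among bone marrow genes with at least 50 UMIs in a cluster over both libraries, the ratio nearest 1 was that of Stfa1 in the interferon-led cluster 3, with 301 UMIs in KO, 180 in WT and a ratio of 1.08 (0.896 to 1.31), an interval that holds 1.

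Stefin A RNA was low in the first maturation bins and high in the last ones in both genotypes, without a steady climb in KO. Bone marrow neutrophil-like cells, 3509 drawn from each library, were split into 10 bins by a score of 9 late minus 10 early neutrophil genes, none of them a stefin. In bin 1 the family held 167 CPM in KO and 16.4 CPM in WT, in bin 5 1822 CPM in KO and 837 CPM in WT, and in bin 10 6997 CPM in KO and 3681 CPM in WT. KO was highest in bin 7, at 7461 CPM (7272 to 7654), above its bin 10 (6792 to 7206), whereas WT was highest in bin 10. Among the early bins KO had 276 CPM in bin 2 and 218 CPM in bin 3. WT rose at each step from bin 2 (13.5 CPM) on, and its bins 1 and 2 had overlapping intervals. KO was higher in 10 of 10 bins, with a median ratio of 2.61 and a range of 1.90 to 20.4. From bin 7 on, the share of cells with a family UMI before thinning was 76.2% to 82.9% in KO and 39.4% to 44.4% in WT, so in WT bone marrow fewer cells had a family UMI than not even in the latest bins. In the first 3 bins WT held 13.5 to 24.9 CPM, near the level of B-like cells. Among 219 tumor neutrophil-like cells drawn from each library, KO was higher in 5 of 5 bins, with ratios of 1.45 to 3.52.

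**Figure D5:**
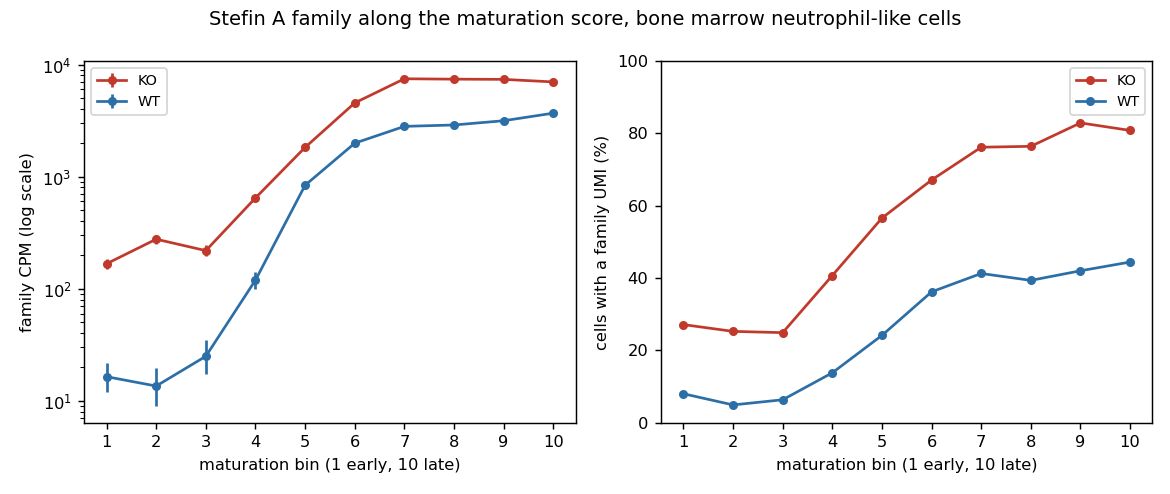
Stefin A family in bone marrow neutrophil-like cells along 10 bins of a maturation score, KO and WT, 1 library each. Left: CPM on a log axis with 95% Poisson intervals. Right: percent of cells with a family UMI, without thinning, which reaches 82.9% in KO and 44.4% in WT.

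Likeness to the family across cell clusters was measured by Pearson's r of log2(CPM + 1) over 52 sums of a cluster in a library in bone marrow and 45 in the tumor. These points share libraries and cell lineages, so r is given as a description. In bone marrow Slc7a11, the cystine importer, had the highest r (0.943), followed by Retnlg (0.932), Asprv1 (0.927), Cxcr2, the receptor for neutrophil-attracting chemokines (0.923), Il1f9 (0.921), Ifit1bl2 (0.905), Ppp1r3b (0.894) and Acta2 (0.890). In the tumor these were Asprv1 (0.952), S100a9 (0.945), G0s2 (0.929), Chil1 (0.911), Lcn2 (0.9004), Mrgpra2b (0.9002), Il1f9 (0.880) and Mirt2 (0.876). Asprv1, a protease gene, and Il1f9, which encodes an interleukin-36 cytokine, stood in both lists.

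The other stefin A genes of the locus held far less RNA than the family sum. In mature cells Csta3 and Csta2 lay below each of the 6 genes, whereas in the tumor both lay above Stfa2 and Stfa3. Csta3, listed as Gm5416 in bone marrow, held 32.7 CPM in KO and 9.55 CPM in WT mature cells (ratio 3.43, 2.21 to 5.58), and 90.3 CPM in KO and 16.98 CPM in WT tumor neutrophil-like cells (ratio 5.32, 2.88 to 11.1). Csta2, listed as 2010005H15Rik in bone marrow, held 85.3 CPM in KO and 30.6 CPM in WT in the tumor (ratio 2.79, 1.76 to 4.73). Csta1 and Cstdc6 had too few UMIs for a ratio. Levels of Csta2 and Gm5483 are uncertain, given the likeness of their transcripts.

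The family's target proteases and the other cystatins were read from a list of stefins, cystatins and cysteine cathepsins without the 6 genes. In mature cells 6 of 10 measured list genes were over 1.5-fold higher in KO and 0 lower, where 15.3% of all genes were higher and 4.86% lower. The list's median log2 ratio was 0.77, against 0.21 over all measured genes. The 6 include Csta3 and Csta2 of the stefin A locus itself. Ctsl, the lysosomal protease cathepsin L, held 56.9 CPM in KO and 20.8 CPM in WT (ratio 2.73), Ctsc, cathepsin C, which activates neutrophil serine proteases, 20.3 CPM in KO and 8.24 CPM in WT (ratio 2.46), and Ctss, cathepsin S, 79.5 CPM in KO and 42.5 CPM in WT (ratio 1.87). Cstb, the gene of stefin B outside the locus, was near equal, with 106 CPM in KO and 97.2 CPM in WT (ratio 1.10, 0.941 to 1.28). Ctsb, cathepsin B, was lower in KO, with 52.3 CPM in KO and 66.8 CPM in WT (ratio 0.782, 0.645 to 0.951), and Ctsh, cathepsin H, had a ratio of 1.03 (0.856 to 1.25).

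In immature cells 2 of 11 measured list genes were over 1.5-fold higher and 0 lower (7.49% and 1.86% of all genes), with a median log2 ratio of 0.41 against 0.22 over all genes. Ctsl had a ratio of 1.82 there, Cst3, the secreted cystatin C, 1.41, and Ctsb 0.812 (0.742 to 0.889). In the tumor 3 of 12 were higher and 4 lower (12.1% and 38.1% of all genes), with a median of 0.23 against -0.34. Ctsl was higher in KO again, at 293 CPM against 115 CPM in WT (ratio 2.54, 2.00 to 3.28). Ctss held 185 CPM in KO and 433 CPM in WT (ratio 0.427), and Cst3 455 CPM in KO and 1017 CPM in WT (ratio 0.447). Monocyte and macrophage marker sums were higher in WT in the same class, as given above, and their part in these ratios was not tested.

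In mature cells some measured genes within 500 kb of the locus were higher in KO and others lower. The stefins, which were chosen from this contrast, were all higher. In size the measured neighbors varied less, with ratios from 0.758 for Parp14 to 1.798 for Kpna1. Those of the stefins ran from 1.56 for Stfa2l1 to 8.66 for Stfa2. Neighbors below the UMI minimum went both ways, such as Slc15a2 at 4.78 (1.53 to 24.1) and Iqcb1 at 0.227 (0.019 to 1.99). Of the annotated neighbors, 10 were measured in mature cells, of which 3 were over 1.5-fold higher in KO and 0 lower (15.3% and 4.86% of all genes). In immature cells 2 of 11 were higher and 0 lower (7.49% and 1.86% of all genes), and in the tumor 3 of 12 were higher and 0 lower (12.1% and 38.1% of all genes). Their median log2 ratio was 0.42 in mature cells, 0.25 in immature cells and 0.23 in the tumor, against 0.21, 0.22 and -0.34 over all measured genes. Fam162a, a mitochondrial protein gene induced by hypoxia, had ratios of 1.77 in mature, 2.81 in immature and 2.11 in tumor cells. Kpna1, an importin gene, had a ratio of 1.798 in mature cells. Golgb1, a Golgi protein gene, had ratios of 1.62 in mature and 1.49 in immature cells, and Slc49a4 had 2.38 and Hspbap1 1.89 (0.904 to 4.73) in the tumor. Parp9 stood at 0.774 in immature cells.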

How the data were processed

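Per the file headers, the bone marrow counts came from Cell Ranger 3.1.0 and those of the tumor from 6.0.2. The authors deposited them as unnormalized UMI counts. R 4.2.1, Seurat 4.3.0, Cell Ranger 6.1.2 and the builds GRCm38 and mm10 stand in the submitters' processing notes with no role given. Annotations differ between tissues, so each tissue was analysed separately. Cells needed 200 or more genes and no more than 10% mitochondrial UMIs. Scrublet scores were computed in scanpy 1.11.5. Its automatic threshold marked 0% in KO bone marrow and in WT tumor, so in all 4 libraries the highest scores were removed at 0.8% per 1000 barcodes, a rule set after the scores were seen. Both libraries of a tissue were clustered together (2000 variable genes without stefins, S100a8 and S100a9, 30 components, 15 neighbors, Leiden resolution 1, igraph 0.11.9) and clusters named from marker lists. The names are a reconstruction, and the clusters called bone marrow mature were 1, 2, 3 and 13, immature 4, 5, 10 and 12, and tumor neutrophil-like 13 and 15.

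UMI counts were summed per class and library and given as CPM of the class total. Poisson, Clopper-Pearson and conditional ratio intervals are exact, at 95%, and cover counting error only. For a gene without UMIs in 1 library, the lower bound of the ratio used 3 UMIs in the class. With 1 library per group no test was run and no p-value computed. The ratio script was tested on simulated counts. Transcript identity and motifs came from GENCODE M21 transcripts and RefSeq promoters (biopython 1.88). The genes and lists were chosen with earlier results of these data known. All 6 stefins are named in every comparison, and the rule named in addition the 8 most alike genes, up to 4 list genes and 3 neighboring genes per class with the largest ratios and at least 100 UMIs, and 5 leading genes per neutrophil cluster. Cstb, Ctsb, Ctsh, and Cst3 in the tumor, are named outside that rule. The alternatives tried were another total, means over cells, thinning, doublet and mitochondrial filters, other clusterings, other UMI minimums and other members.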

Additional observations from a re-analysis of the deposited data

Results flagged for a closer look

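Stfa3 was the single stefin A gene whose ratio pointed the other way in the tumor, at 0.622 (42 UMIs in KO and 3 in WT) against 2.56 in bone marrow mature cells (877 UMIs in KO and 117 in WT). The tumor interval of 0.199 to 3.14 holds the bone marrow value, and the difference between tissues was not tested.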

How the results depend on the processing

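The family was higher in KO in 38 of 38 recomputed ratios, of which 20 moved by less than counting error. The immature class, at 4.00, depended most on where it was drawn. It gave 10.0 with each library clustered alone, 9.39 without cluster 12, 7.79 at Leiden resolution 0.5, 5.08 with doublets kept, 3.68 with thinned cells, 3.58 as a mean over cells, 3.33 with the other total, 3.27 with KO clusters weighted to the WT mix and 3.11 with the stefins among the clustering genes. The mature class, at 2.34, gave 2.67 with each library clustered alone, 2.45 with the WT mix, 2.43 at resolution 2, 2.41 with the stefins among the clustering genes, 2.16 thinned, 2.12 as a mean over cells and 2.04 with the other total. The tumor class, at 1.90, gave 2.04 with doublets kept and 2.03 with the WT mix. The cause of these shifts was not tested. The WT mix was chosen after seeing the data, as were the sum of all 10 stefin A genes of the locus and the tumor sum without Cstdc5, which moved no ratio beyond counting error. Of 196 recomputed ratios of single genes, 185 lay above 1, 69 moved beyond counting error and 0 turned a called direction. They moved most in the immature class, where BC100530 ran from 7.25 to 53.9 and gave 53.9 at resolution 0.5, 52.9 without cluster 12 and 34.4 with each library clustered alone. In the tumor Stfa1 ran from 2.65 to 5.62 and the bound of Stfa2 from 3.73 to 13.7. The other total moved the median log2 ratio of all genes to -0.04 from 0.22 in immature, to 0.01 from 0.21 in mature and to -0.39 from -0.34 in tumor cells.

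The background shifted with the UMI minimum. At a minimum of 50, 133 genes were over 2-fold higher and 52 lower in immature, 252 and 89 in mature, and 385 and 1374 in tumor cells. At 10 these were 419 and 306, 587 and 539, and 400 and 3586, and at 200 they were 44 and 10, 78 and 19, and 192 and 432. The tumor count of 3586 includes genes found only in KO, because a WT count of 0 was set to 3 UMIs. Ctsk, for example, had 15 UMIs in KO and 0 in WT, which gave a ratio of 0.222. With 5 maturation bins the median ratio stayed at 2.61. No paired analysis was possible because each group holds 1 library. The WT tumor class, with 219 cells, limits single genes there most, and no value can be told apart from the spread between mouse pools.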
